A study of Homo sapiens with 8 samples.

Results

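The exons described here are skipped exons (SE) of 51 to 300 nt whose upstream and downstream introns are each at most 500 nt long, in RNA of U2OS cells, a human osteosarcoma cell line. An exon that appeared in several events of the whole-cell table was represented by the event with the most inclusion and skipping reads. This gave 3091 exons of the 48505 distinct skipped exons (6.37%), in 1862 genes, and neither the inclusion level nor its change was used to choose them. In the cytoplasmic table, 1433 of them had the event with the same flanking exons. The shortest flanking intron was 49 nt, and 136 exons had both introns under 100 nt. Overlapping exons share reads: 668 overlapped another of the 3091, which left 2737 separate places. Most genes held a single such exon (1169 genes), and 60 genes held 5 or more, with 11 in CPNE1 and 10 in ACADVL.

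Cells were transfected with EGFP siRNA, which targets a gene that the cells do not carry, or with CHERP siRNA#2, each at 20 nM, and RNA was taken after 48 h from whole cells or from the cytoplasm. Each siRNA and fraction had 2 libraries, 8 in all, described by the labels as separate replicates of one cell line. The groups share the line and the transfection, and CHERP was targeted with a single siRNA sequence in these libraries. The question was which splicing events differ after depletion of CHERP, a nuclear protein that associates with the U2 snRNP. The libraries of a group are named 1 and 2 in the order in which the tables list them, which may not be the replicate number of the labels. With 2 libraries a group, an exact permutation test over libraries cannot give a p below 0.333.

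Splicing begins with recognition of the 5′ splice site by the U1 snRNP and of the branch point and 3′ splice site by U2AF and the U2 snRNP. Where introns are long, the sites are thought to be paired across the exon, and where introns are short, across the intron. Exons between short introns lie mostly in GC-rich, gene-dense parts of the genome, and they often form runs in housekeeping genes.

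Reads on skipped-exon events ranged from 19287081 to 23480646 per whole-cell library and from 3826409 to 4685633 per cytoplasmic library. Reads of CHERP over its splicing events were 103 and 77 in the EGFP libraries against 3 and 10 in the CHERP libraries in whole cells, and 31 and 21 against 3 and 4 in the cytoplasm. The mesenchymal markers VIM, FN1, CD44 and COL5A1 were listed, whereas SPARC and COL1A2 were not, and neither were EPCAM, KRT19, PTPRC, HBB and ALB. CDH1, an epithelial cadherin, had a single read in each whole-cell EGFP library and 22 and 15 reads in the CHERP libraries. Its part in the results below was not tested.

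The sequence around these exons was compared with that of 31435 exons of the same length range between introns that were both over 500 nt, and with 10043 exons that had a single short intron. The values are descriptions over exons, which are not independent replicates. The median GC content was 56.1% in the exons between short introns and 45.1% in those between longer introns, with exons that had a single short intron in between. The introns followed the same order. The upstream intron had a median GC content of 56.2% beside exons between short introns, against 45.5% and 41.0%, and the downstream intron 54.9% against 43.5% and 40.5%. Exon and upstream intron differed little in GC content between short introns, with a median difference of 1.0 percentage point, against 3.98 points between longer introns. Adenine made up 22.3% of the exon between short introns and 28.8% between longer ones. The motif GGG, searched on the transcribed strand alone in bases 7 to 46 of the intron, was present downstream of 63.6% of the exons between short introns, against 44.2% with a single short intron and 31.0% between longer introns. Upstream introns held it in 66.8%, 50.2% and 39.4% of cases.

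Splice sites were scored by the log2 odds of their bases under the base frequencies of all exons of 51 to 300 nt, over the last 20 bases of the intron with the first 3 of the exon at the 3′ site, and the last 3 of the exon with the first 6 of the intron at the 5′ site. Most of these exons lie between longer introns, so a score can also reflect base composition and is not a measure of site strength alone. The median 3′ score was 6.81 between short introns, 8.36 with a single short intron and 9.73 between longer introns. The 5′ score differed less, at 7.36, 7.68 and 8.08. Pyrimidines over the 17 bases before the last 3 of the upstream intron averaged 72.4%, 72.8% and 73.8%. Exon length was similar, with medians of 111 nt between short introns and 117 nt between longer introns, and lengths that are a multiple of 3 made up 41.5% and 40.4%. By the annotation, 2418 of the 3091 exons (78.2%) lay in the coding region, 295 were partly coding, 197 belonged to noncoding transcripts, 120 to 5′ UTRs and 53 to 3′ UTRs, and 8 were not annotated. Chromosome 19 carried 7.12% of them, against 3.52% of the exons between longer introns.

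**Figure D1:**
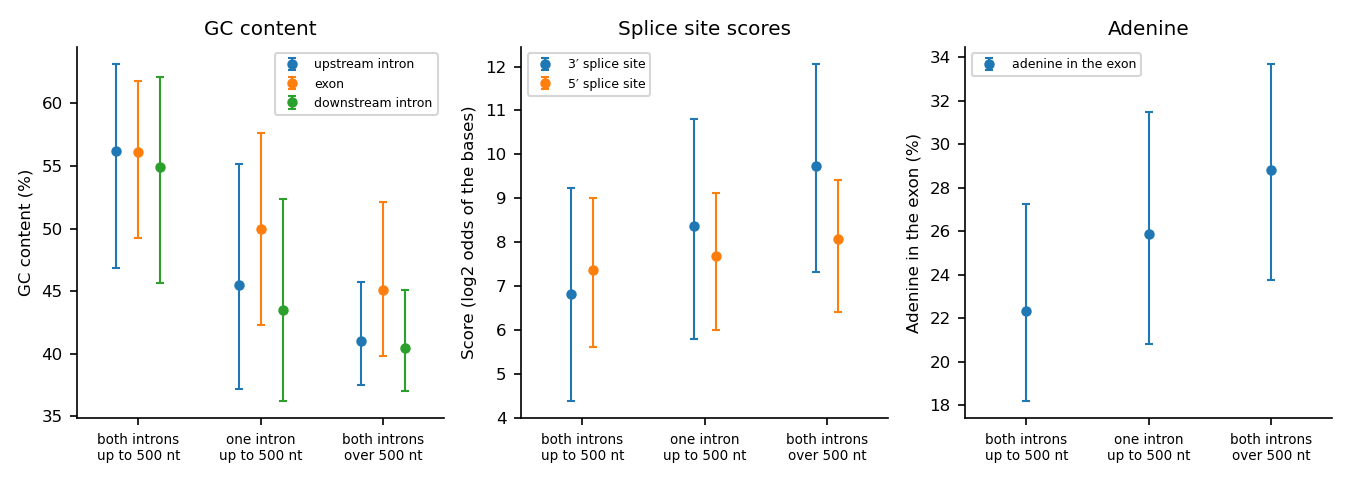
GC content, splice site scores and adenine content of exons of 51 to 300 nt by the length of their flanking introns (points, medians; bars, quartiles over exons). From exons between short introns to exons between longer introns, the median exon GC content goes from 56.1% to 45.1% and the median 3′ splice site score from 6.81 to 9.73.

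The 3′ splice sites of 9 of the exons whose inclusion changed in whole cells are printed because low and high 3′ scores both occur among them. Bases are from GRCh37 (hg19), read 5′ to 3′ on the transcribed strand, and capitals mark exonic bases. The 3′ sites of the PSMC5 exons, which rose, scored -0.04 for the 250-nt form and 4.09 for the 95-nt form. Both CENPK forms, which fell, scored 7.40 and 6.28, and the SUGT1, UBP1 and PPIL2 exons, which fell, scored 7.56, 8.56 and 10.0. Others lay the opposite way: the RBM3, RPL3 and RPS27 exons rose with scores of 8.98, 8.50 and 7.98, and the TREX2 exon fell with a score of 0.96. No test was made of these scores.
PSMC5 250-nt exon, 3′ site at chr17:61905014-61905036 (plus strand): gaccggatctgctgtgtcagCGC
PSMC5 95-nt exon, 3′ site at chr17:61905169-61905191 (plus strand): tccgctggctccttcgtcagTAC
C17orf76-AS1 176-nt exon, 3′ site at chr17:16342822-16342844 (plus strand): cctgatgatacttgtaatagGAA
C17orf76-AS1 123-nt exon, 3′ site at chr17:16342875-16342897 (plus strand): taatgtctatctgaccgcagTCG
CENPK 131-nt exon, 3′ site at chr5:64824874-64824896 (minus strand): acatttaaagttttatttagATA
CENPK 99-nt exon, 3′ site at chr5:64824842-64824864 (minus strand): ttgtttttccatgtcgaaagGGA
SUGT1 128-nt exon, 3′ site at chr13:53232214-53232236 (plus strand): attttgtaccttctgaatagGGA
UBP1 134-nt exon, 3′ site at chr3:33438368-33438390 (minus strand): tgttttgtgtacaccttcagGGC
PPIL2 113-nt exon, 3′ site at chr22:22024533-22024555 (plus strand): aatgttttttctctatcaagTTT

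Most exons between short introns were nearly always included. Each inclusion level sets the form with the exon against the skipping form of that event alone. Reads of each form were first divided by its effective length. Other forms of the gene do not enter a level, so nested forms that share skipping reads can both have high levels. The median level over exons with EGFP siRNA was 0.984 in whole cells. Of the 3091 exons, 2051 (66.4%) were at 0.95 or over, against 63.2% between longer introns. Under 0.1 were 250 exons (8.09%), against 10.9%. Exons under 0.1 were coding in 28.4% of cases and those at 0.95 or over in 90.4%. The read depth limited the rest: 293 exons had a mean under 10 reads per library in whole cells, as did 214 of the 1433 in the cytoplasm. Between the libraries of EGFP siRNA the median absolute difference was 0.0101 in whole cells, over the 2571 exons averaging 20 reads or more per library, and between those of CHERP siRNA 0.00439. The difference between the siRNA means had a median size of 0.00999. Means of 2 libraries vary less than single libraries, so this size cannot be weighed directly against those within a siRNA. In the cytoplasm these values were 0.0170, 0.00851 and 0.0165.

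With CHERP siRNA, the mean inclusion level over exons between short introns was slightly higher in both fractions, and the shorter the introns, the more of the exons were higher. The mean level over the 3091 exons was 0.845 and 0.841 in the EGFP libraries and 0.854 and 0.854 in the CHERP libraries. The share of exons at 0.95 or over was 67.5% and 69.8% against 75.2% and 73.9%. In the cytoplasm the mean was 0.765 and 0.761 against 0.776 and 0.770, and the share at 0.95 or over was 53.8% and 53.5% against 59.3% and 61.1%. The libraries of the 2 siRNAs did not overlap in any of these measures. The 10043 exons with a single short intron lay the other way in whole cells, with means of 0.788 and 0.790 against 0.780 and 0.780, and those between longer introns with 0.807 and 0.812 against 0.802 and 0.804. Over the 2110 exons between short introns that averaged 50 reads or more, the means were still apart, at 0.888 and 0.886 against 0.891 and 0.890. The exact permutation p of each of these was 0.333, the smallest that 2 against 2 libraries allow. The median difference over the exons between short introns was small, 0.00186 in whole cells and 0.00415 in the cytoplasm, beside -1.33e-05 and -0.000329 over all skipped-exon events. It was 0.0 in both fractions without EGFP library 1 and again without EGFP library 2. By the level with EGFP siRNA, it was 0.0588 among the 790 exons at 0.1 to 0.95, beside 0.0412 over all events in that range, and 0.000549 among those at 0.95 or over. The 250 exons under 0.1 lay the other way, at -0.00135, beside 0.00258 over all events. The EGFP levels that set these groups also enter the difference, so its size within a group cannot be read as an effect of CHERP siRNA.

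Each CHERP library was then set against each EGFP library, exon by exon, and the same was done within a siRNA as a measure of the spread. Exons with equal levels in a pair, or without a level in either library, were left out of its share. Exon counts given for a group include them, so a share is not a share of that count. Over all exons between short introns, 53.8% to 60.4% of exons were higher in the CHERP library in whole cells, while EGFP library 2 exceeded library 1 in 53.8% and CHERP library 2 exceeded library 1 in 47.3%. The lowest whole-cell share was level with the larger share within a siRNA. In the cytoplasm they were 58.2% to 58.9%, against 48.6% and 49.1% within a siRNA. By the mean levels, coding exons were higher in 60.8% of cases in whole cells and 62.9% in the cytoplasm, whereas exons of 5′ UTRs were higher in 47.1% (120 exons) and 34.5% (84 exons), and those of noncoding transcripts in 47.5% and 54.2%.

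The length of the introns separated these exons further. Where the longer of the flanking introns was at most 100 nt (140 exons, ties included), 64.8% to 77.7% of untied exons were higher in the CHERP library. Over 100 and up to 150 nt (279 exons, ties included) the range was 62.8% to 77.0%. Within a siRNA the shares in these groups were 50.9% and 53.1% for EGFP and 42.7% and 45.7% for CHERP. At 151 to 250 nt the range was 53.4% to 65.1%, at 251 to 350 nt 51.7% to 59.2%, and at 351 to 500 nt 51.6% to 53.7%. In these longer groups EGFP library 2 exceeded library 1 in 54.02%, 55.59% and 52.83% of exons in whole cells. CHERP library 2 exceeded library 1 in 42.55%, 49.9% and 49.08%. Each EGFP share lay above the lowest CHERP over EGFP share of its group. Above 150 nt the whole-cell shares were thus not clear of the spread within a siRNA. The cytoplasm showed the same order, from 68.0% to 81.8% at up to 100 nt (60 exons) down to 50.8% to 53.5% at 351 to 500 nt. In whole cells, exons with introns up to 100 nt had mean levels of 0.911 and 0.890 in the EGFP libraries against 0.946 and 0.918 in the CHERP libraries, and at 351 to 500 nt 0.800 and 0.796 against 0.801 and 0.802. Just inside the limit were 384 exons with a longer intron of over 450 nt. Of the untied exons among them, 46.5% were higher in the lowest pair and over 50% in no pair. Among the 347 just outside, of over 500 and up to 550 nt, the range was 51.5% to 61.4%. The shares thus did not fall at the limit itself. Their cytoplasmic shares reached 58.3% and 55.3%. With a single short intron, the range was 45.1% to 47.8%, and between longer introns 46.9% to 49.8%.

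**Figure D2:**
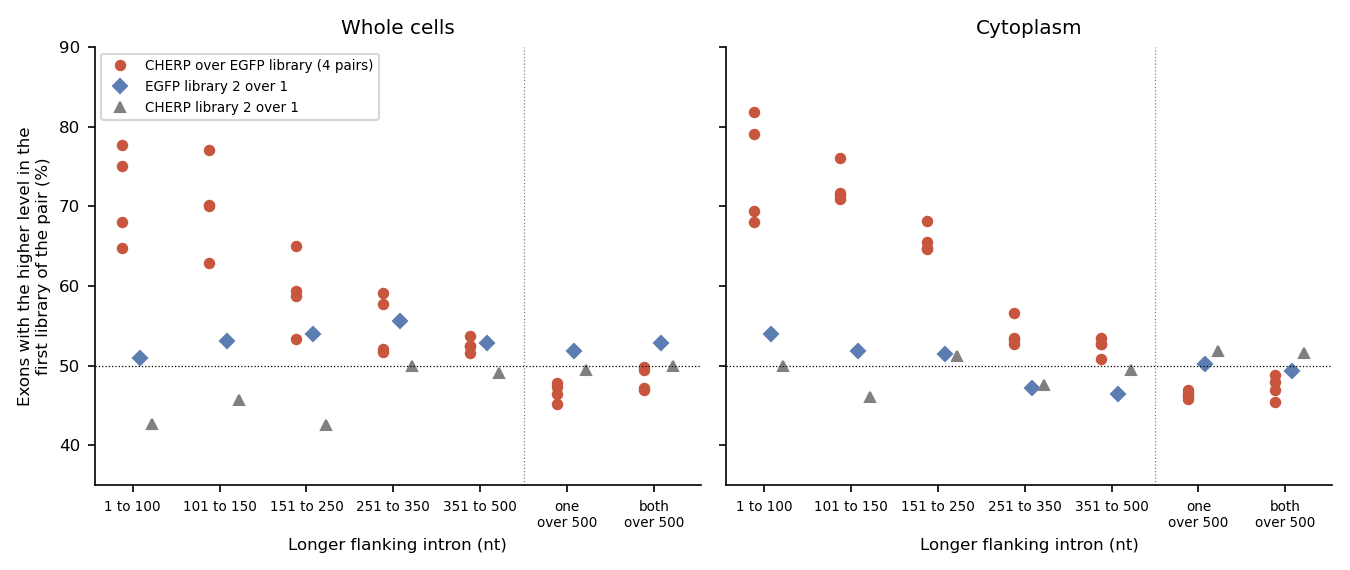
Percent of exons with the higher inclusion level in the first library of a pair, by the longer flanking intron (nt), in whole cells (left) and cytoplasm (right). Exons tied in a pair are left out of its percentage. Red points are the 4 CHERP over EGFP pairs, blue diamonds and grey triangles the pairs within a siRNA, and the last columns are exons with a single intron or both introns over 500 nt. The red points lie between 64.8% and 77.7% at 1 to 100 nt and between 51.6% and 53.7% at 351 to 500 nt in whole cells.

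GC content went with the same difference. Exons with under 45% GC were higher in a CHERP library in 43.8% to 49.9% of cases in whole cells, and exons with 65% or more in 60.9% to 67.8%. In the cytoplasm the ranges were 43.3% to 53.0% and 68.5% to 73.5%. Short introns and GC content are related among these exons, since the median exon GC content was 61.0% at introns up to 100 nt and 54.5% at 351 to 500 nt. Both were then set side by side, with tied exons again left out of the shares. Exons with introns up to 150 nt were higher in 68.7% to 82.0% of cases with 55% GC or more (275 exons). Where GC was lower, the range was 57.1% to 64.7% (144 exons). Both counts include tied exons. With an intron over 150 nt the ranges were 56.5% to 62.4% and 47.6% to 52.8%. Ordered by 3′ score, the 1030 exons with the lowest scores had a higher mean level with CHERP siRNA in 678 cases and a lower one in 350, the next 1030 in 567 and 461, and the 1031 with the highest scores in 563 and 468.

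Of the 143 exons with both introns up to 150 nt that averaged 20 reads or more in each fraction, the whole-cell libraries did not overlap in 57 that were higher (39.9%) and 11 that were lower (7.69%) with CHERP siRNA. Over all skipped-exon events with such reads, the shares were 19.1% and 21.1%. In the cytoplasm 42 were higher (29.4%) and 5 lower (3.50%), beside 13.6% and 15.8% over all events. Both fractions were free of overlap in the same direction for 20 higher exons (14.0%) and 1 lower exon (0.699%), beside 6.17% and 7.40% of all such events, and in opposite directions for 3 exons (2.10%), beside 2.30%. Of the 387 exons with an intron of 351 to 500 nt, 67 were higher and 58 lower in whole cells, and 70 and 53 in the cytoplasm, with 23 higher and 22 lower in both and 11 opposite.

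Examples of these exons were picked after their values were seen, as those with the largest difference in the fraction where it was smaller, and they carry no test. MAP4K2, which encodes a stress-activated protein kinase, has a 132-nt coding exon (exon 9 of 32) between introns of 79 and 73 nt, included at 0.562 and 0.613 in the EGFP and 0.905 and 0.854 in the CHERP libraries of whole cells, and at 0.815 and 0.634 against 0.926 and 1.0 in the cytoplasm. ULK3, a kinase of the ULK family, has a 79-nt coding exon between introns of 95 and 73 nt at 0.846 and 0.618 against 0.946 and 0.974. ATP13A2, a lysosomal transport ATPase, has a 117-nt exon between introns of 123 and 116 nt at 0.924 and 0.801 against 1.0 and 0.988. UBXN6, a cofactor of the ATPase VCP, has a 131-nt exon between introns of 86 and 85 nt, with 70.2% GC and a 3′ score of 0.93, at 0.884 and 0.880 against 0.959 and 0.945 in whole cells and 0.700 and 0.838 against 0.890 and 0.925 in the cytoplasm. The single lower exon was the 137-nt exon of SETD5, a gene for a SET-domain protein, at 0.297 and 0.163 against 0.133 and 0.0620. These 5 exons averaged 40.8 to 121 reads per whole-cell library, and none passed the FDR of the test below.

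The quasi-binomial test with Benjamini-Hochberg adjustment over all 63977 events called 18 of the 3091 exons (0.582%) at an FDR under 0.05 in whole cells, beside 0.893% of all events. Inclusion rose in 12 and fell in 6. Over all events 0.455% were called higher and 0.438% lower. At an unadjusted p under 0.05 there were 158 exons (5.11%), beside 5.54% of all events. The share called was thus near or below that of all events. In the cytoplasm 6 of 1433 exons (0.419%) were called, all 6 higher, beside 0.254% of the 31924 events (0.147% higher and 0.107% lower). Of the 17 whole-cell calls with a level in the cytoplasm, 15 had the same direction there, and 5 were called in both fractions. These counts were not taken over all events. A difference of at least 0.1 without overlap was seen in 115 of the 2571 exons averaging 20 reads or more (4.47%), 63 of them higher, beside 5.95% of all events. With or without overlap, 152 exons differed by at least 0.1 between the siRNA means, while 211 did so between the EGFP libraries and 132 between the CHERP libraries. The first count is of means and the others of single libraries, which vary more, so they are not like measures. In the cytoplasm a difference of at least 0.1 without overlap was seen in 74 of 1070 exons (6.92%), 44 of them higher, beside 6.73% of all events.

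The calls rest on few libraries. In simulated data 23.5% of the whole-cell events given a change of 1.5 in log odds were recovered. Limma on log2 odds called none of these exons. The whole-cell count was 6 higher and 5 lower where an exon's own spread could raise the dispersion. Without CHERP library 1 it was 5 and 0, without CHERP library 2 6 and 2, and without EGFP library 2 the falls were 3. The cytoplasmic count of 6 was 2 without EGFP library 1 or CHERP library 1 and 0 without EGFP library 2. Of the exons named below, the PSMC5 250-nt and C17orf76-AS1 176-nt exons were called in whole cells whichever library was left out.

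**Figure D3:**
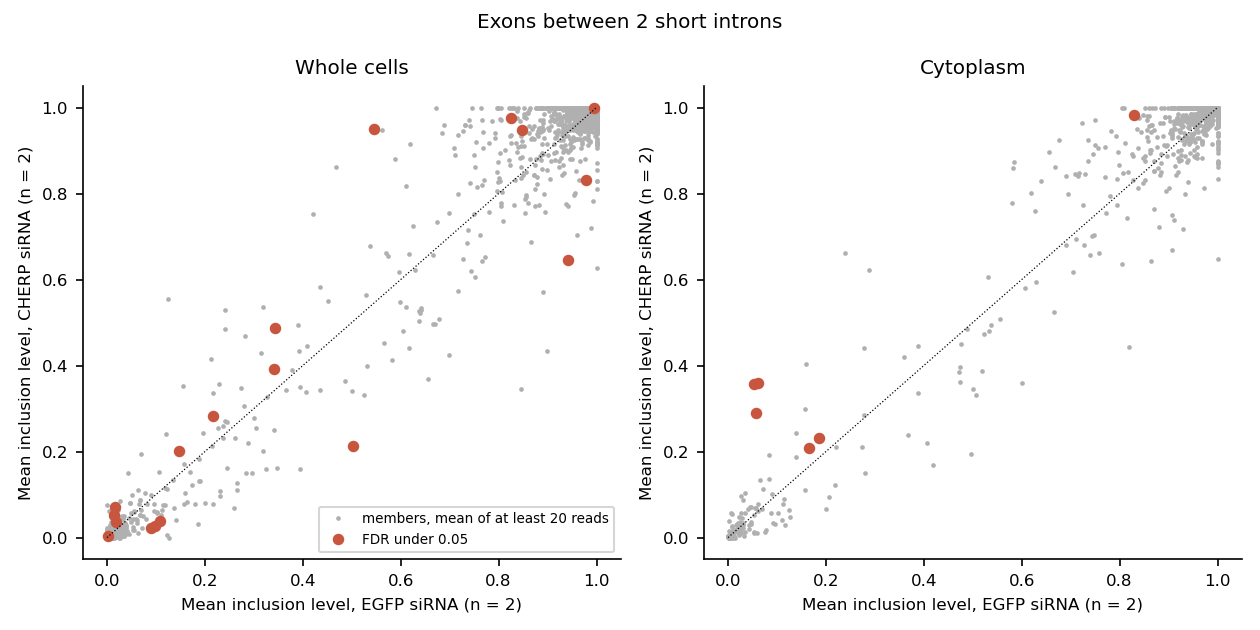
Mean inclusion level with CHERP siRNA (y axis) against that with EGFP siRNA (x axis), n = 2 libraries each, for exons between short introns averaging 20 reads or more (grey); red points have an FDR under 0.05. The dotted line marks equal levels, and the 6 calls in the cytoplasm all lie above it.

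PSMC5 encodes an ATPase subunit of the 19S regulatory particle of the proteasome. It has nested alternative second exons in the 5′ UTR that share the 5′ splice site and the skipping reads, so that their changes are not independent. The 250-nt form (chr17:61905034-61905283, plus strand) had 21 and 31 inclusion reads in the EGFP libraries against 136 and 140 in the CHERP libraries, beside skipping reads of 577, 556, 701 and 641. Its level rose from 0.0165 ± 0.00484 to 0.0701 ± 0.00545 (SD, n = 2), with an FDR of 6.80e-09. The 95-nt form (from 61905189) rose from 0.0137 ± 0.00621 to 0.0524 ± 0.00257, with an FDR of 0.00191, or 0.0519, 0.0860 and 0.0927 without CHERP library 1, CHERP library 2 or EGFP library 1. The cytoplasmic level of the 250-nt form was 0.0514 and 0.0628 in the EGFP libraries against 0.320 and 0.259 in the CHERP libraries (FDR 0.0130). The 95-nt form was at 0.0336 and 0.0881 against 0.384 and 0.333 (FDR 0.0197), and a 73-nt form was at 0.0385 and 0.0690 against 0.403 and 0.310 (FDR 0.0205). These cytoplasmic calls rest on 20 to 27 skipping reads a library, and the FDR of each was over 0.05 without CHERP library 1, EGFP library 1 or EGFP library 2, from 0.159 to 0.666. PSMC5 itself had a log2 fold change of 0.21 ± 0.13 (SE; FDR 0.283). FTSJ3 spans the place on the opposite strand, and whether the counting used the strand is not given in the sources used here.

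C17orf76-AS1, named SNHG29 in the newer annotation, is a noncoding host gene of small nucleolar RNAs. Its second exon has a 176-nt form (chr17:16342842-16343017, plus strand) and a 123-nt form that share the 5′ splice site, with the 3′ sites printed above. The 176-nt form had 660 and 872 inclusion reads in the EGFP libraries against 2383 and 1992 in the CHERP libraries, beside 1044 and 1461 against 2736 and 2250 skipping reads. Its level rose from 0.217 ± 0.00690 to 0.283 ± 0.00235 (FDR 5.75e-07). The 123-nt form rose from 0.146 ± 0.0181 to 0.201 ± 0.0130 (FDR 2.51e-05), or 0.214 without EGFP library 2 and 0.0603 with the larger dispersion. The gene itself rose, with a log2 fold change of 1.05 ± 0.17 (FDR 0.0168), so that both forms gained reads. In the cytoplasm the 176-nt form rose from 0.186 ± 0.0176 to 0.232 ± 0.00772 (FDR 0.000554) and the 123-nt form from 0.166 ± 0.0129 to 0.208 ± 0.00452 (FDR 0.00665). Both cytoplasmic FDRs were 0.802 without EGFP library 2. The introns on either side fell while the exon rose. Retention of the 113-nt upstream intron went from 0.133 ± 0.00167 to 0.0599 ± 0.00453 (FDR 0.000852, or 0.0674 without CHERP library 1) and that of the 481-nt downstream intron from 0.193 ± 0.0326 to 0.118 ± 0.00188 (FDR 2.37e-06, or 0.0611 without EGFP library 2).

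CENPK encodes a subunit of the inner kinetochore that assembles at centromeres. The exons that fell are nested forms that share the 5′ splice site, on chromosome 5 at 64824746 to 64824876 (131 nt, upstream intron of 67 nt) and to 64824844 (99 nt, coding, exon 8 of 11 of CENPK-202, upstream intron of 99 nt). Both are read against the same skipping reads, 3 and 9 in the EGFP libraries against 37 and 25 in the CHERP libraries. The 99-nt form fell from 0.986 and 0.972 to 0.800 and 0.864, with an FDR of 0.000221, and the 131-nt form from 0.962 and 0.921 to 0.598 and 0.693, with an FDR of 0.000657. The skipped form, almost absent with EGFP siRNA, was present in both CHERP libraries. Without CHERP library 1 the FDRs were 0.180 and 0.219. Its cytoplasmic reads were 0 and 0 against 3 and 0, so that a difference was not detectable at this depth. CENPK as a gene had a log2 fold change of -0.45 ± 0.18 (FDR 0.126).

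The other 4 exons that fell were minor forms or lay in a shared locus. The SUGT1 128-nt exon (chr13:53232234-53232361), in a noncoding transcript of a gene for an HSP90 co-chaperone, fell from 0.0945 and 0.122 to 0.0315 and 0.0438 (FDR 0.00327). The UBP1 134-nt exon (chr3:33438237-33438370), in a gene for a transcription factor, fell from 0.0926 and 0.105 to 0.0257 and 0.0264 (FDR 0.0319). The PPIL2 113-nt exon (chr22:22024553-22024665), in a gene for a cyclophilin with a U-box, fell from 0.117 and 0.0622 to 0.0164 and 0.0291 (FDR 0.0357, or 0.359 with the larger dispersion). In none of these did the groups overlap, and all 3 were lower in the cytoplasm too, where none was called. The TREX2 177-nt exon (chrX:152720335-152720511) fell from 0.437 and 0.569 to 0.175 and 0.249 (FDR 0.0324), and the annotation gives the same exon to HAUS7 on the same strand, so that the reads cannot be assigned to either gene. Without a single library the FDRs of these exons reached 0.474 for SUGT1, 0.452 for UBP1, 0.861 for PPIL2 and 0.742 for TREX2, and each exceeded 0.05 without CHERP library 1 and without CHERP library 2. Without EGFP library 2 the FDR was 0.214 for SUGT1, 0.303 for UBP1 and 0.533 for TREX2, and without EGFP library 1 it was 0.320 for PPIL2.

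The remaining rises were small in level or rested on a single EGFP library. The RBM3 269-nt exon (chrX:48434203-48434471), in a gene for a cold-inducible RNA-binding protein, rose from 0.0173 and 0.0183 to 0.0393 and 0.0351 (FDR 0.00288, or 0.332 and 0.0843 without CHERP library 1 or 2), while the gene fell by 0.64 on the log2 scale (FDR 0.0254). The RPL3 96-nt exon, in a gene for a large-subunit ribosomal protein, had 18 and 27 skipping reads against 1 and 4 beside 7016 to 9736 inclusion reads (FDR 0.0238, or 0.861, 0.223 and 0.157 without CHERP library 1, CHERP library 2 or EGFP library 2). In RPS27, for a small-subunit protein, the 121-nt exon had 33 and 17 inclusion reads against 76 and 94 (FDR 0.00767, or 0.829 without EGFP library 2, 0.688 without CHERP library 2 and 0.795 with the larger dispersion). RPS27, RPS2 and RPL3 have processed copies elsewhere in the genome, so reads can be split by the mapping. EGFP library 1 and library 2 differed widely for PPP1R35 (0.841 and 0.249 against 0.900 and 1.0), SNHG8 (0.428 and 0.258 against 0.452 and 0.522), RPS2 (0.115 and 0.566 against 0.448 and 0.334) and PPDPF (0.741 and 0.955 against 0.977 and 0.917). With the larger dispersion each of these 4 had an FDR of 0.795, and PPP1R35 and SNHG8 had 0.829 without EGFP library 2. RPS2 and PPDPF overlapped between the siRNAs, and the log odds ratio changed sign without EGFP library 1, with FDRs of 0.279 and 0.899.

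**Figure D4:**
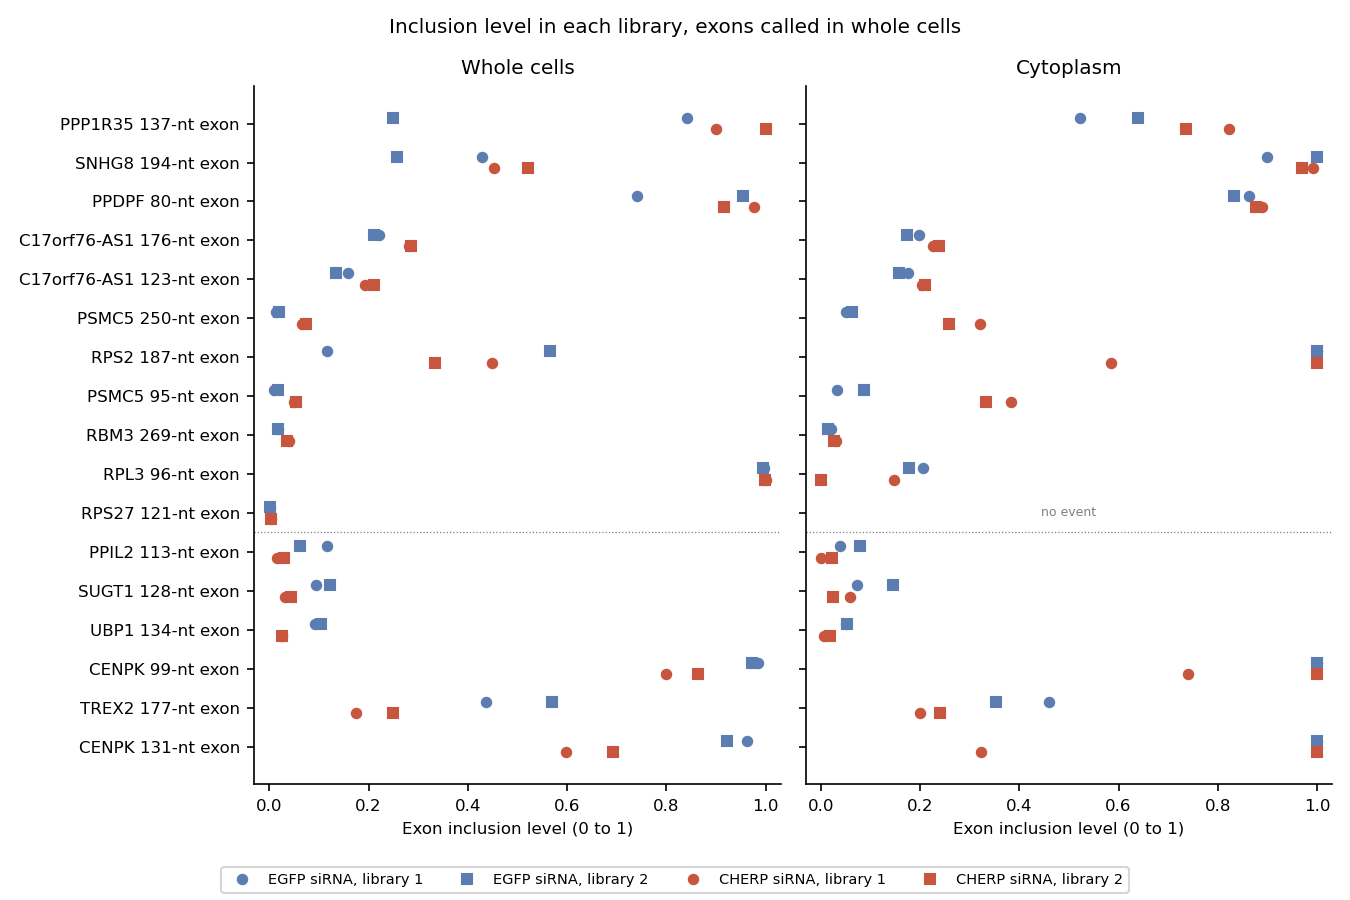
Inclusion level of 17 of the 18 exons called in whole cells, in each of the 4 whole-cell libraries (left) and the 4 cytoplasmic libraries (right); blue, EGFP siRNA; red, CHERP siRNA; exons above the dotted line were called higher. The CENPK 99-nt exon is at 0.986 and 0.972 in the EGFP libraries against 0.800 and 0.864 in the CHERP libraries of whole cells, and the EGFP libraries of PPP1R35 are at 0.841 and 0.249.

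Whether the effect of CHERP siRNA differed between fractions was tested as a difference of log odds ratios over the 23892 events in both tables. None of the 1433 exons passed an FDR of 0.05 in the Wald test, beside 0.0% of all events. An unadjusted p under 0.05 was found for 8 (0.558%), beside 82 (0.343%) of all events. Both shares lie far below what a p under 0.05 gives where nothing differs. The test was thus conservative, and its lack of calls does not show that the fractions responded alike. Inclusion levels themselves were not compared between fractions, since the effective length of the skipping form was 144 in the whole-cell and 73 in the cytoplasmic table. Among the 753 exons averaging 50 reads or more in each fraction, 87 differed by at least 0.05 in whole cells, and 79 of these (90.8%) had the same sign in the cytoplasm. The same share over all skipped-exon events was not taken, so it is not shown to be particular to these exons. Whole-cell RNA also includes the cytoplasmic RNA.

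Gene lists of pathways had few calls. Of 43 exons in 25 genes for cytosolic ribosomal proteins, 3 were called higher in whole cells (RPS27, RPS2 and RPL3) and none lower, beside 0.455% and 0.438% of all events. Of 32 exons in 14 genes for proteasome and chaperonin subunits, 2 were called higher, both in PSMC5, and of the 15 with a cytoplasmic event 3 were called there, the PSMC5 forms. Both lists thus owe their counts to few genes, and forms of PSMC5 share reads. The lists of splicing factors (68 exons in 34 genes), mitosis and chromosome segregation (25 in 14), aminoacyl-tRNA synthetases (23 in 8), lysosomal proteins (20 in 10), laminins, integrins and basement membrane (17 in 12), actin cytoskeleton (17 in 10), DNA replication (16 in 8), glycolysis (7 in 6) and collagens (6 in 6) had none. The median level with EGFP siRNA was 0.999 over the splicing factor exons and 0.963 over the collagen exons, 3 of which were 54 nt long. Of the genes the study followed, AURKB, which encodes a mitotic kinase, had nested exons of 139 and 185 nt. The 185-nt form was at 0.991 and 0.948 in the EGFP and 0.870 and 0.961 in the CHERP libraries (FDR 0.784), with overlap. BIRC5, CENPA, BRCA1 and CHERP had no such exon.

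The introns beside these exons were looked up among retained-intron (RI) events. In whole cells 580 RI events matched a flanking intron of 592 exons. Their median inclusion level with EGFP siRNA was 0.0709, beside 0.131 over all 3717 RI events. The test called 16 of the 580 (2.76%), beside 3.26% of all RI events, 4 higher and 12 lower, beside 1.37% and 1.88%. In the cytoplasm 6 of 278 (2.16%) were called, beside 2.12% of all, 1 higher and 5 lower, beside 0.354% and 1.77%. Over the 580 introns, 336 had a lower and 243 a higher mean level with CHERP siRNA, beside 1949 and 1763 over all RI events. Over the 278 cytoplasmic introns the numbers were 183 and 91, beside 1031 and 656, so that a lean to lower levels was shared by all RI events. Limma on log2 odds called none, and whole-cell counts without CHERP library 1 were 0 higher and 4 lower, without CHERP library 2 0 and 6, and without EGFP library 2 1 higher. With the larger dispersion 1 was called higher. The 5 cytoplasmic falls were 3 and 1 without EGFP library 1 or 2, and 0 and 2 without CHERP library 1 or 2.

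Retention fell in GAS5, a noncoding host gene of small nucleolar RNAs like C17orf76-AS1, where the 168-nt intron went from 0.348 and 0.376 to 0.224 and 0.245 (FDR 6.13e-13). It fell in XPOT, which encodes the exportin for tRNA, where the 155-nt intron went from 0.137 and 0.152 to 0.0563 and 0.0496 (FDR 1.28e-06). Both held whichever library was left out, and both genes rose, by a log2 fold change of 0.70 each (FDR 0.0415 for GAS5 and 0.0271 for XPOT). In HMGN2, for a nucleosome-binding protein, the 267-nt intron went from 0.920 and 0.988 to 0.698 and 0.750 (FDR 0.0316, or 0.506 without CHERP library 1), and in LZTR1, for a ubiquitin ligase adaptor, the 84-nt intron went from 0.134 and 0.291 to 0.0303 and 0.0559 (FDR 0.0316, or 0.608 without CHERP library 1). The others that fell were in RPL4, EIF5A, EEF1A1, ZWINT, NELFCD and another intron of C17orf76-AS1 (266 nt), which lie outside the rule on size and are named after their values were seen. Among these, the 151-nt intron of ZWINT, a kinetochore gene, went from 0.0968 and 0.0878 to 0.0387 and 0.0398 (FDR 0.000934, or 0.161 and 0.0691 without CHERP library 1 or 2).

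Retention rose in AKAP8L, for a nuclear matrix protein, where the 102-nt intron went from 0.494 and 0.392 to 0.687 and 0.752 (FDR 0.0429). It rose in CCDC14 from 0.191 and 0.143 to 0.268 and 0.340 (FDR 0.0341), in STARD3, for a cholesterol-binding protein of late endosomes, from 0.00761 and 0.0162 to 0.0623 and 0.0917 (FDR 0.0133), and in MARS, for methionyl-tRNA synthetase, from 0.0394 and 0.0210 to 0.0654 and 0.0837 (FDR 0.0305). Without single libraries the FDR of these 4 introns reached 0.527 and 0.660 (without CHERP library 2), 0.357 (CHERP library 2) and 0.546 (EGFP library 2). The genes CCDC14 and STARD3 fell by 0.98 and 0.64 on the log2 scale (FDR 0.0168 and 0.0399). In the cytoplasm the 337-nt intron of TUBB6, a tubulin gene, rose from 0.00584 and 0.0117 to 0.0281 and 0.0333 (FDR 0.00288, or 0.247 and 0.0699 without EGFP library 1 or CHERP library 2). Introns of SRSF5, ACADVL and RPL13 fell there beside those of C17orf76-AS1, each with an FDR over 0.05 without at least a single library.

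**Figure D5:**
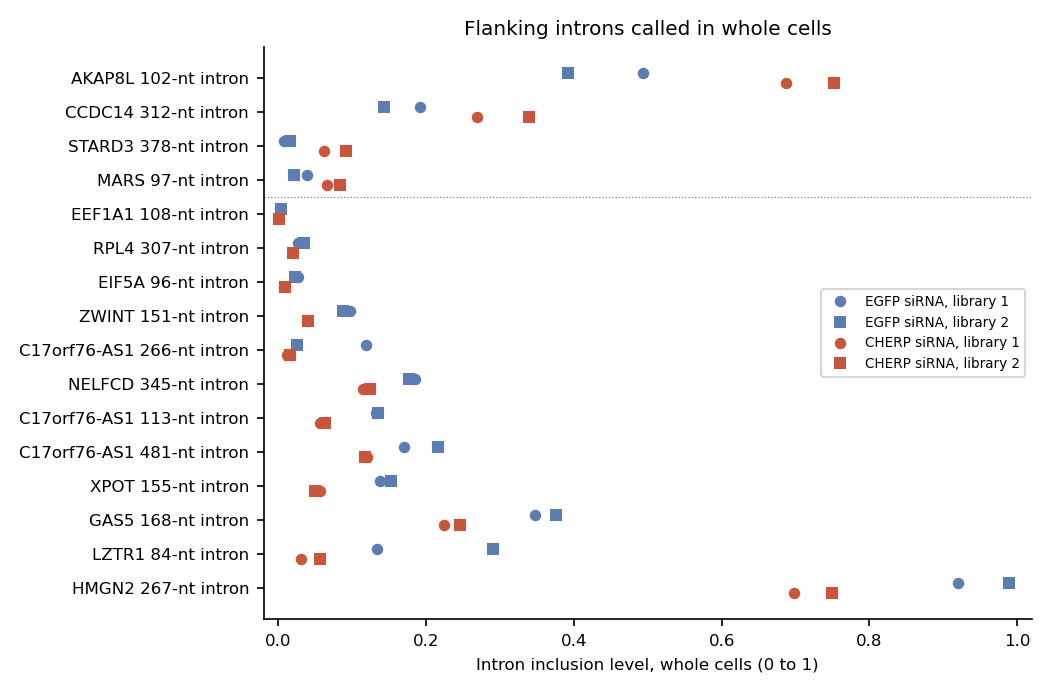
Inclusion level of the 16 flanking introns called in whole cells, in each library (blue, EGFP siRNA; red, CHERP siRNA); introns above the dotted line were called higher. The GAS5 intron is at 0.348 and 0.376 in the EGFP libraries against 0.224 and 0.245 in the CHERP libraries.

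Host genes of these exons changed about as often as other genes. Gene levels were taken from the reads of the splicing tables, so fewer transcripts and less RNA per cell cannot be told apart. Of 1734 host genes tested in whole cells by limma, 412 (23.8%) had an FDR under 0.05, beside 26.7% of all genes, with 184 higher and 228 lower, beside 13.4% and 13.3%. In the cytoplasm 590 of 1477 (39.9%) did, beside 39.0%, with 286 higher and 304 lower, beside 20.2% and 18.7%. Without CHERP library 1 the whole-cell counts were 36 and 78, without CHERP library 2 43 and 72. The cytoplasmic counts were 144 and 131 without EGFP library 1, 119 and 133 without EGFP library 2, 158 and 210 without CHERP library 1, and 180 and 201 without CHERP library 2.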

How the data were processed

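Per the labels and the study's methods, poly(A) RNA was sequenced with a stranded kit, mapped to hg19 with STAR 2.5.2b and analysed with rMATS (version not given in the sources used here). The deposited tables of the authors give, for each event, counts of inclusion and skipping reads on the target and junctions, 2 libraries joined in each cell, effective lengths and the authors' inclusion levels, p-values and FDRs, which were not used. A table of gene expression from RSEM 1.2.25 and mutually exclusive exons were not used here. From these counts, inclusion levels were recomputed and each event was tested by a quasi-binomial model, with the Pearson dispersion moderated by squeezeVar of limma 3.58.1 (R 4.3.3) with a trend on mean reads and a floor of 1. The prior degrees of freedom were infinite, so an event's own spread had no weight. Gene levels were reads over effective length summed over SE, A5SS and A3SS events, tested by limma on log2(value + 0.01) where a gene averaged 20 reads or more. P-values were adjusted by Benjamini-Hochberg over each whole table. Flanking sequence came from GRCh37 and annotation from GENCODE 44 lifted to GRCh37. The scripts were tested on simulated data. Where the dispersion varied between events, 7.69% of whole-cell SE calls and 12.6% of whole-cell RI calls were false, more than an FDR of 0.05 allows. In the cytoplasm these were 2.56% and 2.84%. With the dispersion as fitted, no such share was over 3.39%. Of simulated gene calls, 9.82% were false in whole cells and 5.1% in the cytoplasm. Named exons had an FDR under 0.05, averaged 20 reads or more and did not overlap between the siRNAs (15 and 15 largest changes in whole cells, 6 and 6 elsewhere), with called list members, CHERP, BIRC5, AURKB, CENPA and BRCA1 added, and the called PPDPF exon and further called introns were named outside this rule after their values were seen. Exons and lists were chosen with earlier results of these data known. P-values of exons and introns rest on a spread between libraries pooled over events of similar read depth, not on that of the event itself. With 2 libraries a group, the spread behind any p-value may be technical. The pairwise library shares, the splits by intron length and GC content and the examples were added after seeing the data. The values of 1 called exon are not reported here.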

Additional observations from a re-analysis of the deposited data

Results flagged for a closer look

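The RPL3 96-nt exon differed in direction between the fractions. Its inclusion level was higher with CHERP siRNA in both whole-cell libraries than in the EGFP libraries, by 0.00374, and lower in both cytoplasmic libraries, by a difference of -0.118. The cytoplasmic levels were 0.206 and 0.178 in the EGFP and 0.147 and 0.0 in the CHERP libraries, on 6, 5, 2 and 0 inclusion reads, whereas the whole-cell libraries had 7016 to 9736. The difference between the fractions had an unadjusted p of 0.0339 and an FDR of 1.0 in the Wald test.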

How the results depend on the processing

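No paired analysis was possible because the cells of the tables carry no replicate number. Limma on log2 odds called 0 exons and 0 flanking introns in either direction and fraction. With the larger of own and moderated dispersion, 6 exons were higher in whole cells, as were 1 flanking intron in whole cells and 2 lower in the cytoplasm. Moderation without a trend gave 36 higher and 25 lower exons in whole cells and 13 and 7 in the cytoplasm. A prior from events whose rarer form had 10 reads or more gave 22 and 12 and again 13 and 7, with 1 flanking intron higher in whole cells and 9 lower in the cytoplasm. A difference of at least 0.1 as well left 3 higher and 3 lower in whole cells. The filters at 10 and 50 reads each gave 3 lower exons in the cytoplasm, and that at 10 reads 8 lower flanking introns there. The median difference was 0.00157 and 0.00110 in whole cells and 0.00432 and 0.00384 in the cytoplasm under these filters, and 0.00186 and 0.00413 where the event was chosen before the intron limits. The cytoplasmic pair share, with a mean of 58.6%, was 60.1% and 62.8% under the filters.

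An intron limit of 300 nt gave 6 higher and 0 lower exons in whole cells and 2 higher in the cytoplasm, medians of 0.00378 and 0.00994 and pair shares of 61.6% and 65.8%. A limit of 1000 nt gave 30 and 33 in whole cells and 4 lower in the cytoplasm, medians of 0.000905 and 0.00148 and pair shares of 53.5% and 52.8%. No filter on low gene counts gave 104 higher and 133 lower host genes in whole cells and 142 and 153 in the cytoplasm.

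Without each library in turn, exons ranged from 5 to 15 higher and 0 to 7 lower in whole cells and from 0 to 5 higher in the cytoplasm, and the median difference from 0.0 to 0.00246 and 0.0 to 0.00500. The whole-cell pair share was highest without EGFP library 2, at 59.2%, and lowest without EGFP library 1, where it stayed over 50%. Flanking introns ranged from 0 to 5 higher and 4 to 15 lower in whole cells, and from 0 to 1 and 0 to 3 in the cytoplasm. Host genes ranged from 36 to 269 higher and 72 to 249 lower in whole cells, and from 119 to 180 and 131 to 210 in the cytoplasm. The RPS2 and PPDPF exons turned direction without EGFP library 1, with FDRs of 0.279 and 0.899, and their FDRs ranged from 7.66e-12 to 0.708 and from 0.000270 to 0.899 without each library in turn. The interaction called 0 exons under each alternative run. Exons with few skipping reads limit the precision, and 2 libraries a group limit every test.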
